A study of Mus musculus with 75 samples.

Results

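De novo lipogenesis was followed through 10 genes: Acly and Acss2, which supply cytosolic acetyl-CoA; Acaca and Acacb, the acetyl-CoA carboxylases; Fasn, fatty acid synthase; Elovl6, an elongase; the regulators Srebf1, Mlxipl and Thrsp; and Pnpla3, a lipid-droplet protein whose expression follows that of the lipogenic enzymes. They were taken by gene symbol from the gene count tables of mice fed chow or a high-fat diet (HFD). All 10 were present in both tables, out of 22781 genes listed in either. The samples were 75 RNA-seq libraries in 20 groups, from 43 mice, and each library was made from 1 tissue of 1 mouse. The mice carried their nuclear genome (n) and mitochondrial DNA (mt) either from 1 strain or from 2 strains exchanged. C57n:C57mt is wild-type C57BL6/J and C3Hn:C3Hmt is wild-type C3H/HeN, while C57n:C3Hmt and C3Hn:C57mt are the mitochondrial-nuclear exchange (MNX) mice, with the nucleus named first. All mice were weaned onto chow. Some stayed on it, and the others received the HFD from week 6 of age. For both diets the end point was weeks 12 to 13 of age. Epididymal fat (eWAT, visceral) gave 15 libraries on chow and 14 on HFD, inguinal fat (iWAT, subcutaneous) gave 16 and 14, and muscle labelled gas gave 16, all on chow. Each group held 3 or 4 libraries. The sex of the mice, the composition of the diets and the number of founder animals of each MNX line are not given in the labels used here.

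De novo lipogenesis turns surplus carbohydrate into fatty acids. ATP citrate lyase (Acly) and acetyl-CoA synthetase (Acss2) make cytosolic acetyl-CoA, the carboxylases make malonyl-CoA from it, Fasn condenses these units into palmitate, and Elovl6 lengthens palmitate to stearate. Acaca supplies malonyl-CoA for synthesis, whereas Acacb sits at the mitochondrial outer membrane, where malonyl-CoA restrains fatty acid oxidation; Acacb is the main form in muscle. Insulin acts on the pathway through SREBP1c, a product of Srebf1, and glucose through ChREBP, the product of Mlxipl. Thrsp is a small nuclear and cytosolic protein of lipogenic tissues that responds to thyroid hormone and carbohydrate feeding. In adipose tissue the pathway is known to fall on diets rich in fat.

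The promoters of 4 members are given because these genes carry the results that follow: Thrsp differed by nuclear genome in every tissue, Fasn and Acly had the highest levels of the enzymes per length in fat, and Pnpla3 was the member not called lower on HFD in either depot. Each is the 250 bases upstream of the RefSeq start, from RefSeq's promoter table (GRCm38.p6), placed by exact match in the mouse build NCBIM37 (mm9) and written 5′ to 3′ on the gene's strand. Capitals mark NF-Y boxes (CCAAT, or ATTGG on the other strand) and GC boxes (GGGCGG, or CCGCCC).
Thrsp, chr7:104566061-104566310, minus strand: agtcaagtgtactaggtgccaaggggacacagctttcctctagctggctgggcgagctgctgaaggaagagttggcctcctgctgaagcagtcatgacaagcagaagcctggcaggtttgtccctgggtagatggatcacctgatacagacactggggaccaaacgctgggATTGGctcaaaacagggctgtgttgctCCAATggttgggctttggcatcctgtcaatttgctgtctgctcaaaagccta
Fasn, chr11:120685862-120686111, minus strand: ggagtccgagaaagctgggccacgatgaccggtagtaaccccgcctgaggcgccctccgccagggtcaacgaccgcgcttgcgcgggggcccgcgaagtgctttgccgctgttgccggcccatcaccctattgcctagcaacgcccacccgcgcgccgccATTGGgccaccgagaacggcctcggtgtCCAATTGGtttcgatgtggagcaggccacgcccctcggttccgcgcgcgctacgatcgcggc
Acly, chr11:100389315-100389564, minus strand: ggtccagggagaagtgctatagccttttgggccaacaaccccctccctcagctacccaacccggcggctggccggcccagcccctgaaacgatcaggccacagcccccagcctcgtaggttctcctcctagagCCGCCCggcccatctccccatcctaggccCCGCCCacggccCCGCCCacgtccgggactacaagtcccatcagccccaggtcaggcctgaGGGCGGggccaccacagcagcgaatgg
Pnpla3, chr15:83997996-83998245, plus strand: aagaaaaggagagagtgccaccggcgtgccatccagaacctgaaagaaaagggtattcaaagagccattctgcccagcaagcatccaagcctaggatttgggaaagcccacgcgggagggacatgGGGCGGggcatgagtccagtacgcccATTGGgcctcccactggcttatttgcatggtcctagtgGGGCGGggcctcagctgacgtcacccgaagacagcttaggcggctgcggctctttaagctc

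The table gave 13 such windows for the 10 genes, 2 of Mlxipl, 3 of Srebf1 and 1 of each other member. An NF-Y box stood in 8 of the 13, in 7 genes, against 33.85% of the 32851 promoters of the same length in the table. A GC box stood in 6 of 13, in 5 genes, against 32.7% of promoters. The core of the sterol regulatory element (TCACNCCA) and the palindromic E-box (CACGTG) were each found in 1 window, of Mlxipl, against 3.67% and 6.02% of promoters. Both strands were searched. In Fasn, CCAATTGG holds a box on each strand, and these overlap by 2 bases. These are matches of letters, not measured binding. In NCBIM37 the genes lie at chr2:155343684-155411460 (Acss2), chr3:129235304-129341413 (Elovl6), chr5:114596544-114700770 (Acacb), chr5:135582761-135614254 (Mlxipl), chr7:104561448-104566240 (Thrsp), chr11:60012591-60036083 (Srebf1), chr11:83943174-84215153 (Acaca), chr11:100337667-100389314 (Acly), chr11:120667254-120685492 (Fasn) and chr15:83998246-84019942 (Pnpla3), so 4 of the 10 are on chromosome 11.

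Libraries held 15.7 to 31.5 M expected counts (M, mega), with a median of 24.0 M on chow and 18.3 M on HFD. No 2 libraries of a group were identical. The sample titles carry codes that the labels do not define and that are read here as sequencing run and lane. By these codes the chow libraries shared 1 run and those on HFD were spread over 3 others, so diet and run cannot be told apart. On chow the lane followed the nuclear genome, fully in iWAT and muscle and in all but 1 library of eWAT, so the 2 cannot be told apart there either; on HFD the larger 2 runs held both nuclear genomes. The fat libraries carried their defining marker (median Adipoq of 2493 to 3887 counts per M, CPM, against 20.3 in muscle) and the muscle libraries theirs (median Ckm of 26750 CPM). Of the 29 eWAT libraries, 6 carried RNA of epididymis and epithelium, with the 12 listed markers summing to between 4011 and 24524 CPM against an eWAT median of 43.9 CPM. They were chow C57n:C3Hmt replicates 1 and 4, chow C57n:C57mt replicate 3, chow C3Hn:C57mt replicates 2 and 4, and HFD C3Hn:C3Hmt replicate 1. In iWAT the library HFD C3Hn:C3Hmt replicate 3 stood apart. It was the only one of its run, it had the highest sum of the 13 lymph node markers (4008 CPM, against a median of 57.7 CPM in HFD iWAT) and the lowest sum of the 8 adipocyte markers (10540 CPM). Results that rest on these libraries are given with and without them. Muscle RNA in iWAT varied as well. The sum of 11 skeletal muscle markers ran from 12.5 to 17938 CPM on chow (median 197) and from 30.9 to 24686 CPM on HFD (median 1510). None of the 11 was called for diet in iWAT. In the muscle libraries the sum was 183366 to 225045 CPM. The part of this muscle RNA in the members' values was not tested. In whole tissue, fewer cells of a type and less RNA per cell cannot be told apart.

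HFD against chow was compared in each fat depot as the mean of the 4 genotypes' diet differences, with edgeR's quasi-likelihood test and Benjamini-Hochberg adjustment over all genes tested (17687 in eWAT, 16884 in iWAT). A gene is called when its adjusted p is below 0.05; fold changes are log2, given ± the standard error, and levels are CPM of the library's total expected counts. Members of the pathway were lower on HFD in both depots: 8 of 10 were called lower in eWAT and 9 of 10 in iWAT, and none was called higher. Of all genes tested, 41.3% were called in eWAT, 22.9% lower, and 37.6% were called in iWAT, 16.2% lower. The members' median log2 change was -0.999 in eWAT against -0.10 over all genes, and -1.77 in iWAT against 0.01. Libraries of the 2 diets overlapped for every member in both depots, as the plot of every library's level shows.

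**Figure D1:**
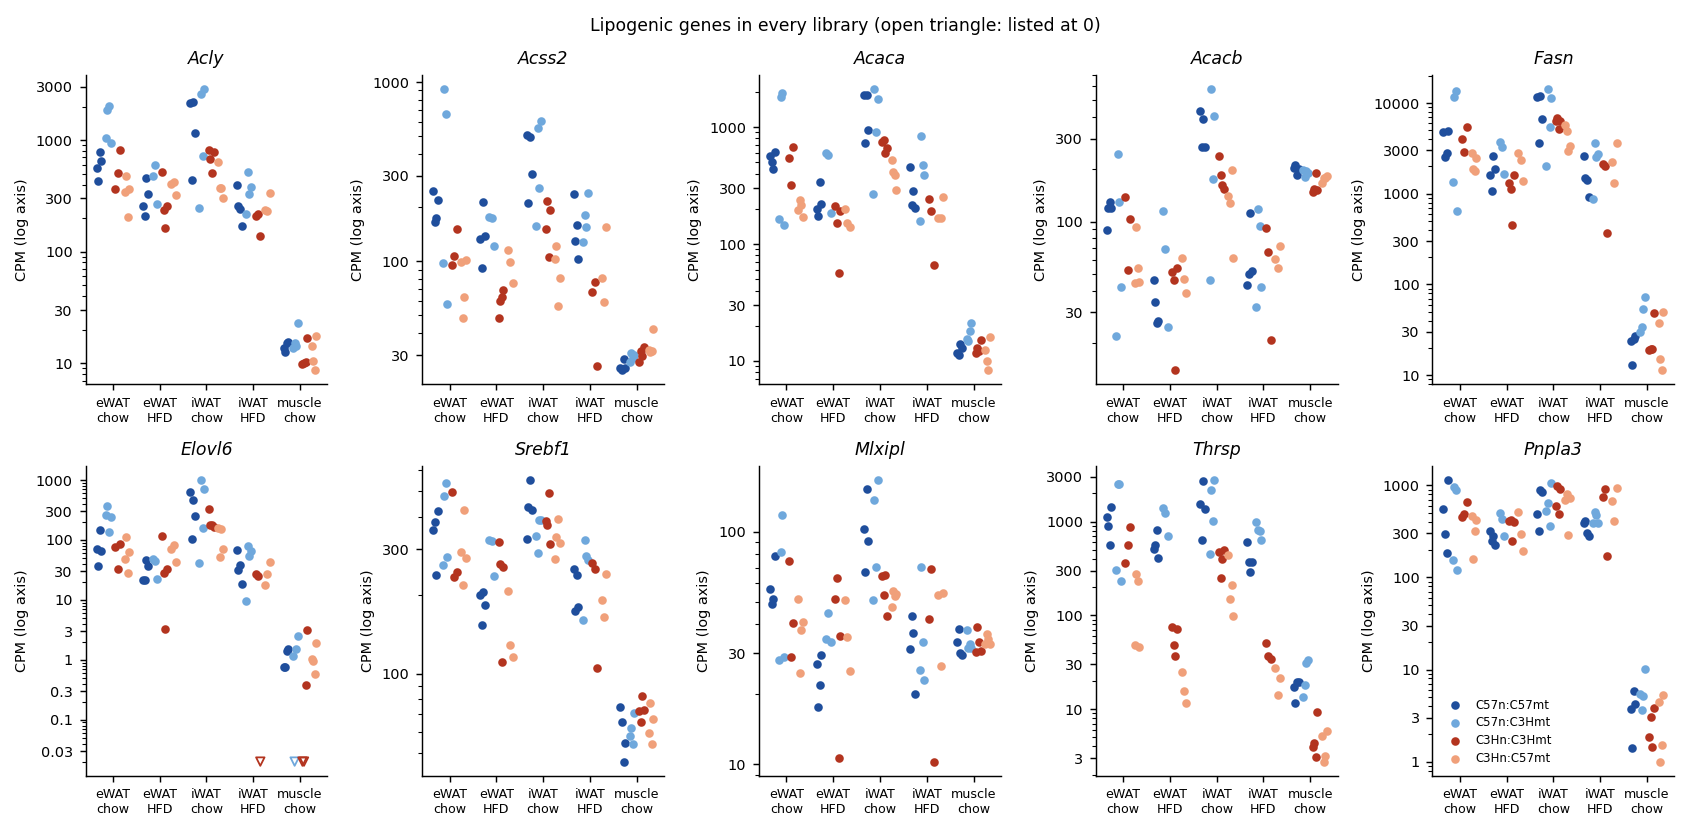
Level of each member in every library (CPM, log axis), by tissue and diet, 1 point a library, coloured by genotype (C57n blue, C3Hn red or orange); Elovl6 values of 0 are open triangles at the foot of the axis. Chow and HFD libraries overlapped for all 10 members in both fat depots, and Thrsp on HFD spread from 11.6 to 1402 CPM in eWAT.

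The genes that supply acetyl-CoA fell in iWAT, and Acly also in eWAT. In eWAT, Acly ranged from 205 to 2008 CPM on chow (median 562) and from 163 to 594 CPM on HFD (median 327). In iWAT it ranged from 248 to 2896 CPM (median 700.7) and from 139 to 513 CPM (median 239). The highest chow libraries had no counterpart on HFD, and the lowest lay among those on HFD. Acly, which cleaves exported citrate, fell by 0.93 ± 0.19 in eWAT (adjusted p = 0.000526) and by 1.85 ± 0.29 in iWAT (adjusted p = 2.48e-05). Acss2, which activates acetate, had nearly equal medians in eWAT, 107 CPM on chow (48.1 to 921) and 108 CPM on HFD (48.3 to 213), and its log2 change of -0.73 ± 0.29 was not called (adjusted p = 0.0506). In iWAT, Acss2 ranged from 56.1 to 611 CPM on chow (median 202) and from 25.9 to 241 CPM on HFD (median 129), and it fell by 1.02 ± 0.23 (adjusted p = 0.00142). Without the 6 eWAT libraries with epithelial RNA, Acss2 was called in eWAT too (-1.0, adjusted p = 4.07e-05).

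Both carboxylases fell in both depots. Acaca, the cytosolic form, ranged in eWAT from 145 to 1975 CPM on chow (median 439) and from 56.8 to 598 CPM on HFD (median 195). In iWAT it ranged from 268 to 2136 CPM (median 738) and from 65.9 to 835 CPM (median 230). It fell by 1.2 ± 0.32 in eWAT (adjusted p = 0.00552) and by 1.74 ± 0.27 in iWAT (adjusted p = 2.7e-05). Acacb, the mitochondrial form, ranged in eWAT from 21.9 to 246 CPM on chow (median 92.5) and from 13.9 to 114 CPM on HFD (median 46.1). Its iWAT libraries ranged from 45.8 to 583 CPM (median 192) and from 20.9 to 118 CPM (median 57.6). Acacb fell by 1.07 ± 0.30 in eWAT (adjusted p = 0.00688) and by 1.86 ± 0.30 in iWAT (adjusted p = 3.37e-05), and the difference between the 2 forms was not tested.

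Fasn, the synthase, ranged from 651 to 13418 CPM in chow eWAT (median 2842) and from 2048 to 14409 CPM in chow iWAT (median 5991). On HFD it ranged from 451 to 3754 CPM in eWAT (median 1633) and from 366 to 3609 CPM in iWAT (median 2084). No HFD library exceeded 3754 CPM, while 6 chow libraries, all of C57n genotypes, held 11271 CPM or more. Fasn fell by 1.13 ± 0.33 in eWAT (adjusted p = 0.00968) and by 1.80 ± 0.30 in iWAT (adjusted p = 5.78e-05). Elovl6, the elongase, showed the steepest fall of the enzymes in iWAT, from 41.0 to 1005 CPM on chow (median 170) to between 0 and 79.3 CPM on HFD (median 29.2), a fall of 3.03 ± 0.51 (adjusted p = 6.22e-05). The library HFD C3Hn:C3Hmt replicate 3 had no Elovl6 count, which allows up to 0.179 CPM (3 counts); without it Elovl6 was still lower (-2.91, adjusted p = 1.22e-05), and 9 members remained called. In eWAT, Elovl6 ranged from 28.3 to 364 CPM on chow (median 75.3) and from 3.25 to 115 CPM on HFD (median 39.4), and fell by 1.19 ± 0.32 (adjusted p = 0.00579).

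Both transcription factors fell in both depots, with estimates nearer 0 than those of Acaca, Acacb, Fasn and Elovl6. Srebf1 ranged in eWAT from 218 to 537 CPM on chow (median 293) and from 111 to 325 CPM on HFD (median 206), and in iWAT from 276 to 552 CPM (median 377) and from 106 to 326 CPM (median 240). It fell by 0.77 ± 0.17 in eWAT (adjusted p = 0.00136) and by 0.81 ± 0.13 in iWAT (adjusted p = 2.76e-05), with the smallest standard error of the 10 in each depot. Mlxipl ranged in eWAT from 24.8 to 118 CPM on chow (median 49.0) and from 10.6 to 63.4 CPM on HFD (median 34.0), and in iWAT from 43.2 to 167 CPM (median 64.9) and from 10.2 to 70.3 CPM (median 35.2). It fell by 0.69 ± 0.24 in eWAT (adjusted p = 0.024) and by 1.01 ± 0.24 in iWAT (adjusted p = 0.00172). The eWAT call for Mlxipl was lost without chow C3Hn:C3Hmt replicate 1 (adjusted p = 0.0632) and after correction for G+C content and gene length (-0.50, adjusted p = 0.138). Differences between the sizes of these falls were not tested.

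Thrsp had the largest change of the 10 in eWAT and the second largest in iWAT, and Pnpla3 was called in neither depot. Thrsp ranged in eWAT from 46.0 to 2530 CPM on chow (median 562) and from 11.6 to 1402 CPM on HFD (median 239), and fell by 1.99 ± 0.36 (adjusted p = 0.000202). In iWAT it ranged from 97.4 to 2777 CPM (median 486) and from 14.2 to 995 CPM (median 328), and fell by 2.46 ± 0.28 (adjusted p = 2.99e-07). Pnpla3, which has lipase and acyltransferase activities, ranged from 121 to 1145 CPM on chow and from 192 to 508 CPM on HFD in eWAT, a log2 change of -0.59 ± 0.31 (adjusted p = 0.125). In iWAT, Pnpla3 ranged from 292 to 1062 CPM and from 170 to 942 CPM, a change of -0.44 ± 0.23 (adjusted p = 0.133). Without the 6 eWAT libraries with epithelial RNA, Pnpla3 was called in eWAT (-0.97, adjusted p = 0.000773), so that all 10 members were called lower there. In chow eWAT the 5 libraries with that RNA had a median of 160 CPM of Pnpla3 against 523 CPM in the other 10, and 1887 against 4432 CPM of Fasn, but 780 against 535 CPM of Acly.

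Markers of other cells also moved with diet. Of 10 macrophage markers, 9 were called higher on HFD in eWAT and 7 in iWAT, where their sum went from 828 to 1634 CPM on chow to 1053 to 2744 CPM on HFD; in eWAT it went from 389 to 4376 CPM to 1160 to 15934 CPM. Of 8 adipocyte markers, 3 were lower and 1 higher in eWAT, 2 lower and 1 higher in iWAT; their sum ranged from 6020 to 40750 CPM on chow and from 12524 to 33451 CPM on HFD in eWAT, and from 18224 to 37045 CPM and from 10540 to 40931 CPM in iWAT. With the mean of 4 adipocyte markers as a covariate, Thrsp was still lower by nearly the same amount (-1.96 in eWAT and -2.46 in iWAT), as was Fasn (-1.04 and -1.83), and 9 members were called in each depot. Of 8 brown adipocyte markers, 5 were called lower and 1 higher on HFD in eWAT (median log2 change -1.12, against -1.0 for the members), and 5 lower and none higher in iWAT (-1.58, against -1.77); Elovl3 is among the 8. In eWAT, 9 of 12 epididymis and epithelium markers and 7 of 13 lymph node markers were called lower as well. The part of macrophage and brown adipocyte content in the members' changes was not tested. The sum of lymph node markers had a median of 727 CPM in chow iWAT and 57.7 CPM in HFD iWAT; with these markers as a covariate all 10 members were called lower in iWAT, Pnpla3 included (-0.71, adjusted p = 0.0241). Aligned reads had a median G+C content of 49.4% on chow and 48.8% on HFD in eWAT, and of 49.0% and 48.2% in iWAT; corrected for G+C content and gene length, 7 members were called in eWAT and the 9 in iWAT. Ribosomal reads also went from a median of 2.15% on chow to 0.67% on HFD in eWAT and from 1.83% to 0.985% in iWAT, and insert length from 157 to 149 bases and from 155 to 150.5 bases; their part was not tested.

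**Figure D2:**
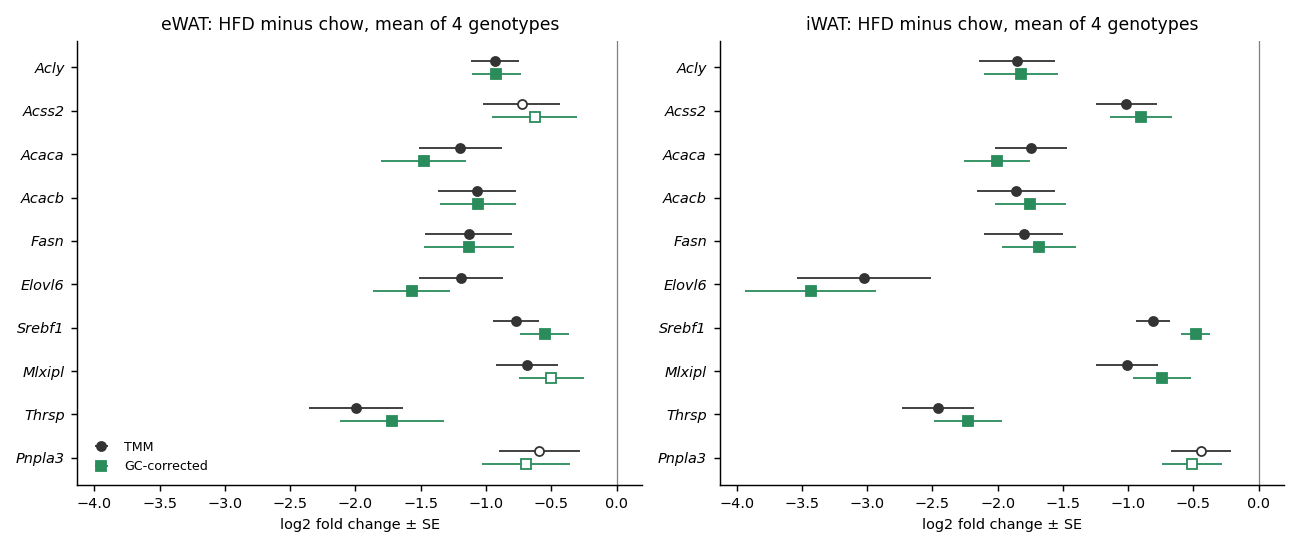
Diet difference of each member (log2 HFD minus chow, mean of the 4 genotypes, bars ± standard error) in eWAT and iWAT, as circles with TMM scaling and as squares after each library's trend on gene G+C content and length was removed; filled symbols were called. Circles and squares all lie below 0, and circles run from -0.44 for Pnpla3 in iWAT to -3.03 for Elovl6 in iWAT.

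Within single genotypes, with 3 or 4 libraries a diet, fewer members were called, all of them lower on HFD. In eWAT there were 6 calls among 40 tests: Acacb in C57n:C57mt, Acly and Elovl6 in C57n:C3Hmt, Thrsp in C3Hn:C3Hmt, and Thrsp and Srebf1 in C3Hn:C57mt. Of all genes, 17.0%, 7.21%, 1.67% and 11.3% were called in these 4 genotypes in that order. None of the 6 calls held in every fit without 1 library, none was called after the G+C correction, and 19 of 40 were called without the 6 libraries with epithelial RNA. In iWAT there were 18 calls: 8 in C57n:C57mt (all but Acss2 and Pnpla3), 6 in C57n:C3Hmt (Acly, Acaca, Acacb, Fasn, Elovl6 and Mlxipl), 3 in C3Hn:C3Hmt (Acaca, Srebf1 and Thrsp) and 1 in C3Hn:C57mt (Thrsp). Of all genes, 16.7%, 16.5%, 4.88% and 7.71% were called. Of the 18 calls, 8 held in every fit without 1 library, and 11 of the 40 values were called after the G+C correction. The iWAT calls of Acaca and Srebf1 in C3Hn:C3Hmt were among those lost without its HFD replicate 3 (adjusted p = 0.137 and 0.13).

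Fasn shows how the genotypes varied. In chow eWAT its 4 C57n:C3Hmt libraries held 1358, 11618, 13418 and 651 CPM, and the first and last of these are the libraries with epithelial RNA. The 4 C57n:C57mt libraries held 4823, 2558, 2842 and 4854 CPM, the 3 of C3Hn:C3Hmt 4042, 2893 and 5380 CPM, and the 4 of C3Hn:C57mt 2800, 1887, 1779 and 2466 CPM. On HFD the C57n:C3Hmt libraries held 3754, 3292 and 1645 CPM, so all 3 lay above the lower pair on chow and below the higher pair. In iWAT the C57n:C57mt libraries separated by diet, with 11586, 3670, 11840 and 6655 CPM of Fasn on chow and 2580, 1484, 1402 and 923 CPM on HFD, a fall of 2.38 ± 0.58 (adjusted p = 0.00887). In C3Hn:C57mt iWAT the diets overlapped, with 5705, 4864, 2987 and 3355 CPM on chow and 2229, 1303 and 3603 CPM on HFD, a change of -0.90 ± 0.61 (adjusted p = 0.405). The plot of diet differences by genotype gives all 80 values.

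**Figure D3:**
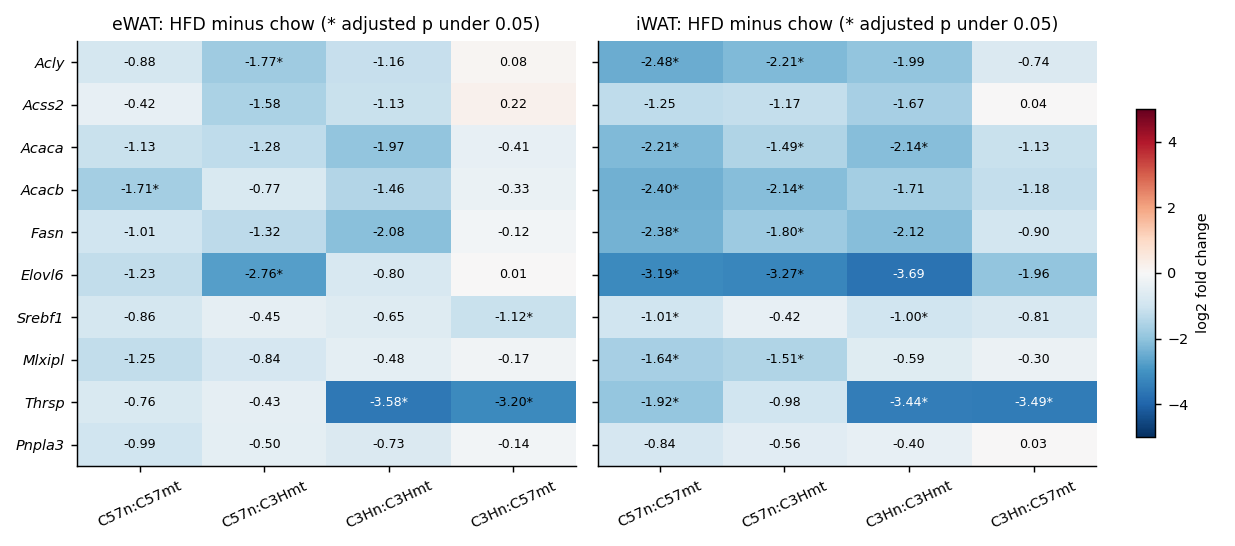
Diet difference (log2 HFD minus chow, printed in each cell and shown by its colour, blue for lower on HFD) of each member in each of the 4 genotypes, eWAT and iWAT; an asterisk marks a call. Of the 40 values a depot, 6 were called in eWAT and 18 in iWAT, and all called values lie below 0.

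Thrsp was low in mice with the C3H nucleus. In chow eWAT it held 1130, 893, 567 and 1443 CPM in C57n:C57mt and 303, 2520, 2530 and 235 CPM in C57n:C3Hmt. The C3Hn libraries lay lower, at 358, 562 and 882 CPM in C3Hn:C3Hmt and 48.0, 275, 233 and 46.0 CPM in C3Hn:C57mt, and the nuclear genomes overlapped. On HFD they did not overlap: Thrsp held 511, 567, 821 and 403 CPM in C57n:C57mt and 1402, 1227 and 694 CPM in C57n:C3Hmt. It held 74.9, 48.1, 36.9 and 71.7 CPM in C3Hn:C3Hmt and 24.7, 15.6 and 11.6 CPM in C3Hn:C57mt. The highest C3Hn library was thus below the lowest C57n library.

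The same held in iWAT on HFD. There, Thrsp held 604, 369, 287 and 370 CPM in C57n:C57mt and 995, 804, 794 and 638 CPM in C57n:C3Hmt, against 50.2, 36.7 and 33.9 CPM in C3Hn:C3Hmt and 27.6, 14.2 and 21.3 CPM in C3Hn:C57mt. On chow the iWAT libraries of Thrsp held 1545, 642, 2719 and 1368 CPM in C57n:C57mt and 446, 2149, 1003 and 2777 CPM in C57n:C3Hmt, against 477, 252, 401 and 495 CPM in C3Hn:C3Hmt and 436, 150, 212 and 97.4 CPM in C3Hn:C57mt. Here 1 C57n library, C57n:C3Hmt replicate 1, lay within the C3Hn range. In muscle, on chow only and at far lower levels, the nuclear genomes again separated, with 17.1, 11.5, 19.2 and 19.3 CPM in C57n:C57mt and 13.5, 18.0, 30.8 and 33.4 CPM in C57n:C3Hmt, against 3.94, 4.31, 3.07 and 9.35 CPM in C3Hn:C3Hmt and 5.11, 2.75, 3.13 and 5.83 CPM in C3Hn:C57mt.

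**Figure D4:**
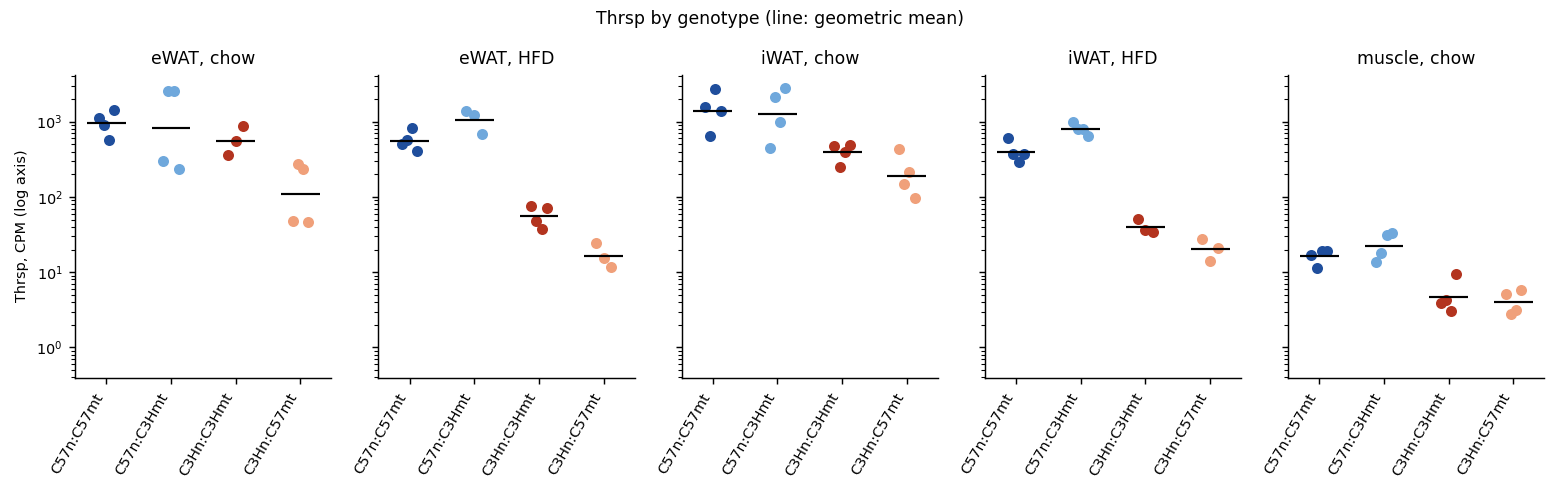
Thrsp in every library (CPM, log axis), by genotype, diet and tissue, 1 point a library and a line at the geometric mean. On HFD the C57n libraries lie at 403 CPM or above in eWAT and 287 CPM or above in iWAT, and the C3Hn libraries at 74.9 CPM or below.

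The nuclear genome was compared as the mean of the 2 C57n genotypes minus the mean of the 2 C3Hn genotypes, and every member called was higher in C57n. Thrsp was higher in all 5 settings: by 1.98 ± 0.51 in eWAT on chow (adjusted p = 0.0119), 4.77 ± 0.59 in eWAT on HFD (adjusted p = 6e-06), 2.42 ± 0.37 in iWAT on chow (adjusted p = 4.52e-05), 4.44 ± 0.46 in iWAT on HFD (adjusted p = 1.28e-07) and 2.21 ± 0.25 in muscle (adjusted p = 3.06e-06). These calls held in every fit without 1 library. On HFD, where lane and nuclear genome were not bound, Thrsp separated within each run: in eWAT 511 to 821 against 15.6 to 74.9 CPM in one and 403 to 1402 against 11.6 to 71.7 CPM in the other, and in iWAT 604 to 995 against 14.2 to 50.2 CPM and 287 to 794 against 21.3 to 36.7 CPM. Adipocyte markers were higher in C57n for 3 of 8 in HFD eWAT and 4 of 8 in HFD iWAT; with them as a covariate Thrsp differed by 4.50 and 4.49. Of 10 macrophage markers, 5 were lower in C57n in eWAT on each diet, and their part was not tested. Both strains were aligned to 1 reference, and reads mapped to the transcriptome at medians of 88.7% in C57n and 86.2% in C3Hn HFD eWAT; the part of strain sequence in the counts of Thrsp was not tested.

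Acly and Acss2, the suppliers of acetyl-CoA, were also higher in C57n in both fat depots on chow, as means over the mitochondrial genomes. In chow eWAT 3 members were called (15.1% of all genes): Thrsp, Acly (1.05 ± 0.26, adjusted p = 0.00982) and Acss2 (1.62 ± 0.42, adjusted p = 0.013). Mean Acly in chow eWAT was 606 CPM in C57n:C57mt and 563 CPM in C3Hn:C3Hmt, against 1458 CPM in C57n:C3Hmt and 349 CPM in C3Hn:C57mt. The wild types thus lay close for Acly, and its difference rested mostly on the exchange lines. Mean Acss2 was 202 CPM in C57n:C57mt, 436 CPM in C57n:C3Hmt, 118 CPM in C3Hn:C3Hmt and 78.0 CPM in C3Hn:C57mt. Without the libraries with epithelial RNA 5 were called there, with Acaca (1.66, adjusted p = 0.00158) and Fasn (1.22, adjusted p = 0.0168) added. In chow iWAT 5 were called (11.7% of all genes): Thrsp, Acly (1.56 ± 0.38, adjusted p = 0.00766), Acss2 (1.68 ± 0.32, adjusted p = 0.000659), Acaca (1.33 ± 0.36, adjusted p = 0.0162) and Mlxipl (0.98 ± 0.32, adjusted p = 0.0464), the last lost in 17 of 30 fits without 1 library. Acss2 in chow iWAT ranged from 158 to 611 CPM in C57n (median 403) and from 56.1 to 216 CPM in C3Hn (median 114), overlapping at the edge. With adipocyte markers as a covariate 3 members were called there. On HFD, Thrsp alone was called in eWAT (13.2% of all genes), with Acss2 at 1.07 ± 0.42 (adjusted p = 0.101) and Acaca at 1.16 ± 0.46 (adjusted p = 0.0995); without the libraries with epithelial RNA 3 members were called. In HFD iWAT, Acss2 was called beside Thrsp (1.28 ± 0.35, adjusted p = 0.0124; 16.3% of all genes), and Acaca was not (1.12 ± 0.40, adjusted p = 0.0552). With all libraries, Fasn, Elovl6, Srebf1 and Pnpla3 were called in none of the 5 settings.

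In muscle, where replicates were close, 4 of 10 members were called, a share near the 33.6% of all genes. Beside Thrsp these were small differences: Acacb 0.31 ± 0.05 (adjusted p = 0.00013), Acaca 0.36 ± 0.11 (adjusted p = 0.0163) and Acly 0.42 ± 0.15 (adjusted p = 0.0379), the last lost in 9 of 16 fits without 1 library. Mean Acaca was 17.3 CPM in C57n:C3Hmt, against 12.5 CPM in C57n:C57mt, 13.0 CPM in C3Hn:C3Hmt and 11.7 CPM in C3Hn:C57mt. Its difference thus rested on C57n:C3Hmt, and the wild types lay close. Of 8 adipocyte markers, 3 were also called higher in C57n muscle and none lower (median 0.55). Their sum ranged from 360 to 469.8 CPM in C57n:C3Hmt and from 206 to 317 CPM in C57n:C57mt. In C3Hn:C3Hmt it ranged from 262 to 322 CPM, and in C3Hn:C57mt from 268 to 375 CPM. The part of these markers was not tested. Acacb ranged from 180 to 211 CPM in C57n muscle and from 148 to 190 CPM in C3Hn muscle.

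Whether the diet difference itself depended on the nuclear genome was tested by an interaction. No member was called in either depot by edgeR's quasi-likelihood test (0.00% of all genes in eWAT, 0.717% in iWAT); 5 of the 20 tests had an unadjusted p below 0.05, and DESeq2 called Thrsp in both depots. Thrsp fell on HFD by 3.58 ± 0.74 in C3Hn:C3Hmt eWAT (adjusted p = 0.022) and by 3.20 ± 0.80 in C3Hn:C57mt eWAT (adjusted p = 0.0141), against changes of -0.76 ± 0.65 in C57n:C57mt (adjusted p = 0.426) and -0.43 ± 0.71 in C57n:C3Hmt (adjusted p = 0.711). In iWAT, Thrsp fell by 3.44 ± 0.61 in C3Hn:C3Hmt (adjusted p = 0.00287) and fell by 3.49 ± 0.61 in C3Hn:C57mt (adjusted p = 0.00133). It fell by 1.92 ± 0.51 in C57n:C57mt (adjusted p = 0.0139) and changed by -0.98 ± 0.50 in C57n:C3Hmt (adjusted p = 0.175). The fall was smaller in C57n by 2.79 ± 0.70 in eWAT (adjusted p = 0.103 with edgeR, 0.00237 with DESeq2) and by 2.02 ± 0.52 in iWAT (adjusted p = 0.0617 with edgeR, 0.00689 with DESeq2). With lymph node markers as a covariate the iWAT interaction of Thrsp was called by edgeR (2.11, adjusted p = 0.0205). The remaining members' interactions ran from -1.60 ± 0.64 (Elovl6, adjusted p = 0.185) to 0.23 ± 0.34 (Srebf1, adjusted p = 0.733) in eWAT, and from -1.13 ± 0.46 (Mlxipl, adjusted p = 0.132) to 0.19 ± 0.25 (Srebf1, adjusted p = 0.638) in iWAT. The comparisons of diet, nuclear genome and mtDNA within a depot share libraries and are not independent of one another. The chow lane that follows the nuclear genome enters this interaction too, and its part cannot be told apart.

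The exchange of mitochondrial DNA on an unchanged nuclear genome, the question the mice were built for, gave no call among 100 tests of members (10 genes, 5 tissue and diet settings, 2 nuclear genomes) with edgeR. Of all genes, edgeR called 0.0113% in HFD eWAT with the C3H nucleus, 0.00728% in muscle with the C3H nucleus and 0.00% in the other 8 comparisons. Among the members, 12 of the 100 had an unadjusted p below 0.05, and DESeq2 called 2. The 2 were Acly in chow eWAT with the C57 nucleus (1.42 ± 0.35 higher with C3H mtDNA by edgeR, adjusted p = 0.079; DESeq2 adjusted p = 0.00833) and Thrsp in chow eWAT with the C3H nucleus (-2.22 ± 0.71 with C57 mtDNA by edgeR, adjusted p = 0.312; DESeq2 adjusted p = 0.0447). Without the 6 libraries with epithelial RNA, edgeR called 2 members in chow eWAT with the C57 nucleus, Acly (1.96, adjusted p = 0.031) and Acss2 (2.08, adjusted p = 0.0219); 2 libraries were then left of C57n:C3Hmt and 3 of C57n:C57mt. Those 2 held 1849 and 2008 CPM of Acly, above the 432 to 780 CPM of all 4 C57n:C57mt libraries. They are replicates 2 and 3 of C57n:C3Hmt, with 3.92% and 8.03% ribosomal reads. The 3 C57n:C57mt libraries left, replicates 1, 2 and 4, had 1.65%, 3.25% and 4.4%. The part of ribosomal reads in these differences was not tested. The share of all genes called in that fit is not given here, and the 0.00% above is of the fit with all libraries. Whether the mtDNA changed the diet difference was tested too, and again no member was called among 40 tests with edgeR (0.00% of all genes). Of the 40, 3 had an unadjusted p below 0.05, and DESeq2 called none. Standard errors of these mtDNA differences in fat ran from 0.24 (Srebf1) to 1.04 (Elovl6), which limits the size that could be detected.

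The depots were compared directly on each diet (eWAT minus iWAT, 18325 genes). On chow 5 members were called lower in eWAT, against 14.4% of all genes called lower and 33.3% called: Acacb by -1.33 ± 0.29 (adjusted p = 0.000403), Elovl6 by -1.48 ± 0.41 (adjusted p = 0.00437), Acaca by -0.82 ± 0.29 (adjusted p = 0.025), Mlxipl by -0.61 ± 0.23 (adjusted p = 0.0372) and Fasn by -0.79 ± 0.31 (adjusted p = 0.0416). With the animal as a block, which uses the 20 mice that gave both depots, Acacb remained called and the other 4 did not (adjusted p = 0.0535 for Acaca, 0.085 for Fasn, 0.112 for Elovl6 and 0.128 for Mlxipl). Of the 5, Acacb and Elovl6 were called in every fit without 1 library. Lymph node markers (13 of 13) and skeletal muscle markers (11 of 11) were lower in eWAT too, as were 7 of 8 brown adipocyte markers (median -2.71), while 9 of 12 epididymis and epithelium markers were higher; the part of brown adipocyte content was not tested. With the lymph node markers as a covariate 1 member was called, and without the 6 libraries with epithelial RNA 2 were. On HFD no member differed between depots by edgeR (23.0% of all genes called; 1 unadjusted p below 0.05; none by DESeq2), with estimates from -0.62 ± 0.28 (Pnpla3, adjusted p = 0.107) and -0.51 ± 0.30 (Acacb) to 0.37 ± 0.25 (Acly) and 0.38 ± 0.43 (Elovl6, adjusted p = 0.576). With the animal block, Thrsp was called higher in eWAT (0.36 ± 0.12, adjusted p = 0.04), and without the libraries with epithelial RNA Pnpla3 was called lower (-0.62, adjusted p = 0.0312). On chow each tissue had its own lanes, so depot and lane cannot be told apart there. The depots' diet differences could not be separated either: no member was called for depot by diet (0.0437% of all genes; 2 unadjusted), and the nearest, Elovl6, differed by 1.86 ± 0.59 (adjusted p = 0.121 with edgeR, 0.0405 with DESeq2).

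Muscle held little of the synthetic pathway, and Acacb was the exception. Against chow eWAT, 8 members were lower and 2 higher in muscle, and against chow iWAT 8 were lower and 1 higher, where 82.6% and 80.4% of all genes were called. Fasn ranged from 11.3 to 73.5 CPM in muscle, lower by -5.78 ± 0.38 than eWAT and -6.56 ± 0.39 than iWAT (adjusted p = 5.81e-17 and 3.14e-18). Pnpla3 ranged from 1.0 to 10.1 CPM, lower by -5.80 ± 0.37 and -6.29 ± 0.37. Acly was lower by -4.29 ± 0.27 and -4.86 ± 0.27, Acaca by -3.93 ± 0.30 and -4.75 ± 0.31, Thrsp by -4.70 ± 0.38 and -4.95 ± 0.38, and Acss2 by -1.25 ± 0.26 and -1.67 ± 0.25. Elovl6 was not counted in 3 of 16 muscle libraries, which allows up to 0.12 to 0.137 CPM in them, and reached 3.18 CPM at most, lower by -5.14 ± 0.48 and -6.62 ± 0.51. Acacb, which guards fatty acid oxidation, ranged from 148 to 211 CPM and was higher than in eWAT by 2.23 ± 0.27 (adjusted p = 1.34e-09) and than in iWAT by 0.90 ± 0.25 (adjusted p = 0.00133). Mlxipl ranged from 29.4 to 38.9 CPM in muscle, higher than eWAT by 0.64 ± 0.18 (adjusted p = 0.00169) and 0.04 ± 0.18 from iWAT (adjusted p = 0.874). Srebf1 was lower by -1.14 ± 0.13 and -1.31 ± 0.13. These fold changes and calls use TMM scaling, and CPM does not. Mean Acacb was 182 CPM in muscle, 95.1 CPM in chow eWAT and 240 CPM in chow iWAT. For Mlxipl the means were 33.5, 52.8 and 79.8 CPM. Without TMM, Acacb was thus lower in muscle than in iWAT, and Mlxipl was lower than in either depot. Tissue is bound to lane on chow, so lane and tissue cannot be told apart. Muscle and fat came in part from the same mice (12 gave both), and no animal block was fitted for this comparison.

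Levels can be compared between genes only per length, as CPM per kilobase of the longest coding transcript. In chow eWAT the order of the means was Thrsp (628 ± 631 CPM per kilobase, SD, n = 15), Fasn (441 ± 380), Acly (171 ± 120), Pnpla3 (104 ± 67.4), Srebf1 (79.7 ± 24.7), Acss2 (73.1 ± 84.2), Acaca (60.2 ± 59.8), Elovl6 (19.8 ± 16.5), Mlxipl (14.5 ± 7.11) and Acacb (10.8 ± 6.45). No 2 neighbours in that order differed by more than the larger of their SDs. Chow iWAT had the same first 4, with Fasn at 706.5 ± 376 and Thrsp at 742 ± 705.6 CPM per kilobase. In muscle the order was different, led by Acacb (20.7 ± 2.14 CPM per kilobase, SD, n = 16) and Srebf1 (15.1 ± 2.32), with Acss2, Thrsp and Mlxipl between 9.20 and 10.2, Fasn at 3.26 ± 1.82, Acly at 3.12 ± 0.812, and Acaca, Pnpla3 and Elovl6 at 1.43 or below. Among these, Acss2, Thrsp and Mlxipl, and Fasn and Acly, did not differ beyond their SDs. There Acacb exceeded Acaca, the reverse of the order in both fat depots.

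**Figure D5:**
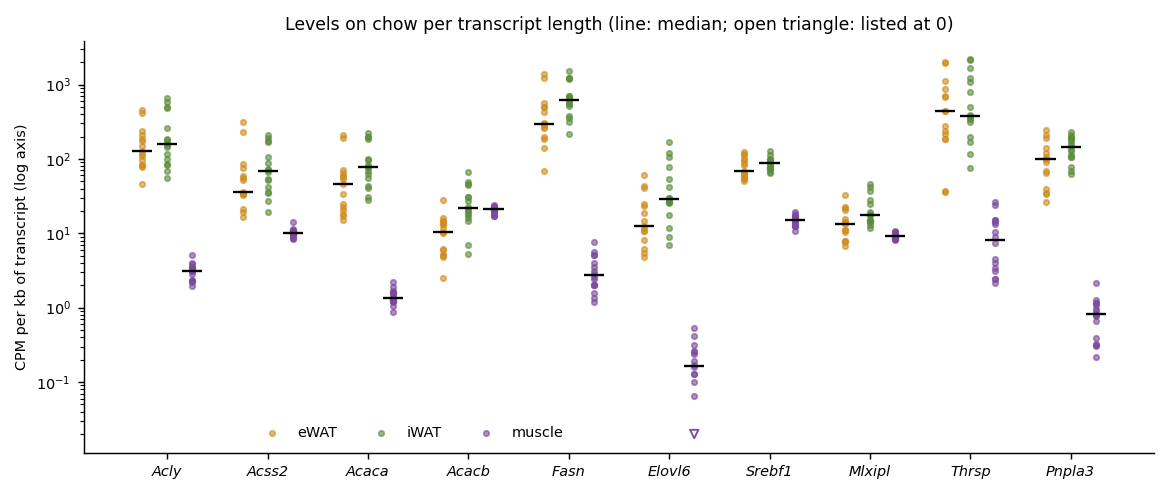
Level of each member per kilobase of transcript (CPM per kilobase, log axis) in chow eWAT, iWAT and muscle, 1 point a library and a line at the median; an open triangle marks Elovl6 values of 0. Thrsp and Fasn have the highest medians in both fat depots, and Acacb and Srebf1 in muscle.

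Within groups most members varied more than the median gene and moved with one another. On chow the within-group SD of log2 CPM in eWAT was 1.35 for Thrsp, 1.26 for Fasn, 1.19 for Acaca, 1.18 for Pnpla3 and 1.16 for Acss2, and 0.51 for Acly, the only member below the median of 0.53 over all genes. In chow iWAT it was 1.32 for Elovl6, 1.08 for Acly and 0.24 for Srebf1, against a median of 0.31. On HFD in eWAT it was 0.47 for Thrsp, 0.59 for Fasn and 0.369 for Srebf1, against a median of 0.374. On HFD in iWAT it was 2.26 for Elovl6 and 0.94 for Fasn, while Thrsp (0.45) and Acly (0.44) lay below the median of 0.46. Over the 29 eWAT libraries, with group means removed, the 45 pairs of members had Pearson correlations from -0.01 to 0.95 with a median of 0.65. Over the 30 of iWAT they ran from 0.17 to 0.95 with a median of 0.68. Acaca (r = 0.97 in eWAT, 0.93 in iWAT) and Fasn (0.95 and 0.96) followed the mean of the other members most closely. Elovl6 in eWAT (0.28) and Srebf1 in iWAT (0.57) followed it least. These are descriptions: the libraries share their depth and their cell makeup across genes, and the libraries with epithelial RNA are among the lowest for most members.

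The genes whose within-group deviations were most like the members' mean were, over the 29 eWAT libraries, Gfm2 (r = 0.94), Aacs (0.92), D9Ertd402e (0.92), Arhgap24 (0.91), Zadh2 (0.90), Slc25a35 (0.90), Oplah (0.90) and Pex11a (0.90). Over the 30 iWAT libraries they included Sacy (r = 0.94), Pygl (0.93), the malic enzyme gene Mod1 (0.92), Pdha1 (0.92), Dlst (0.92), Zadh2 (0.91) and Hadha (0.91). Of the 100 most alike in each depot, 27 were shared.

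Of the 20 mice that gave both depots, the level in eWAT, relative to the group, was set against that in iWAT for each member; 5 of the 10 were related on both measures used. With group means removed, 10 relations were tested, each with 100000 permutations of the mice across all groups and diets. The within-group spread of some members differed by diet, so these permutation p-values may be too small. Thrsp gave r = 0.68 and rho = 0.54 (adjusted permutation p = 0.0104 and 0.0364), and r = 0.53 without the 2 mice farthest from the eWAT median. Acss2 gave r = 0.52 and rho = 0.61 (adjusted permutation p = 0.0358 and 0.0352), and r = 0.65 without 2. Fasn gave r = 0.54 and rho = 0.59 (adjusted permutation p = 0.0364 and 0.0352), and r = 0.40 without 2. Acacb (r = 0.57, rho = 0.52, adjusted permutation p = 0.0358 and 0.0422) and Acaca (r = 0.50, rho = 0.49, adjusted permutation p = 0.0433 and 0.0467) also passed on both measures, with r = 0.40 and 0.37 without 2 mice. Acly (r = 0.47, rho = 0.47, adjusted permutation p = 0.0603 and 0.0573) and Mlxipl (r = 0.38, rho = 0.54, adjusted permutation p = 0.143 and 0.0364) did not pass on both. Pnpla3 (r = 0.29), Srebf1 (r = 0.24) and Elovl6 (r = -0.25) passed on neither. Within diets, which are separate runs, r for Thrsp was 0.73 over 8 chow mice and 0.53 over 12 HFD mice, for Fasn 0.64 and 0.53, and for Acss2 0.50 and 0.74. For Elovl6 it was 0.70 on chow and -0.57 on HFD. Over the 17 mice without epithelial RNA in eWAT, r was 0.52 for Thrsp, 0.74 for Fasn, 0.59 for Acss2, 0.69 for Acacb and 0.65 for Acaca.

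The steps around the members changed with diet in part. Of the genes that supply acetyl-CoA and NADPH, 5 of 16 fell in eWAT and 9 of 15 tested fell in iWAT, with none called higher, where 22.9% and 16.2% of all genes were called lower. Tkt, transketolase of the pentose phosphate pathway, fell by 1.03 ± 0.21 in eWAT (adjusted p = 0.000631) and by 1.61 ± 0.22 in iWAT (adjusted p = 5.48e-06). Aacs, which makes acetoacetyl-CoA in the cytosol, fell by 0.79 ± 0.21 and 0.99 ± 0.19. Pgls, of the same pathway as Tkt, fell by 0.56 ± 0.11 and 0.66 ± 0.14, the glucose transporter gene Slc2a4 fell by 0.87 ± 0.25 in eWAT, and Taldo1 fell by 0.55 ± 0.12 in iWAT. Of the genes of desaturation and elongation, 4 of 10 fell in eWAT and 5 of 10 in iWAT. The elongase gene Elovl3 fell by 2.01 ± 0.77 (adjusted p = 0.0385) and 2.82 ± 0.58 (adjusted p = 0.00051), Gpsn2 by 0.63 ± 0.14 and 0.57 ± 0.11, Fads1 by 0.65 ± 0.21 and 0.29 ± 0.10, Fads2 by 1.67 ± 0.57 in eWAT, and Scd1, stearoyl-CoA desaturase, by 0.90 ± 0.17 in iWAT (adjusted p = 0.000246).

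Of 17 further lipogenic regulators, 2 rose and 5 fell in eWAT, and 2 rose and 7 fell in iWAT, where 41.3% and 37.6% of all genes were called in either direction; the eWAT share is near that of all genes. Nr1h2, which encodes the oxysterol receptor LXR beta, fell by 0.50 ± 0.05 and 0.55 ± 0.06, and Mbtps2, a protease that releases SREBP from the membrane, rose by 0.69 ± 0.08 and 0.54 ± 0.07. Mid1ip1, a paralogue of Thrsp, fell by 1.09 ± 0.25 in eWAT (adjusted p = 0.0019), where the NF-Y subunit gene Nfya rose by 0.76 ± 0.12. Scap, the escort of SREBP, fell by 0.32 ± 0.05 and Usf1 by 0.46 ± 0.07 in iWAT. Of 9 genes that brake malonyl-CoA synthesis or remove it, 3 rose and 4 fell in eWAT, and 2 rose and 3 fell in iWAT. The catalytic AMPK subunit genes rose, Prkaa2 by 0.88 ± 0.27 and 1.10 ± 0.33 and Prkaa1 by 0.42 ± 0.13 and 0.50 ± 0.07, while the upstream kinase gene Stk11 fell by 0.50 ± 0.06 and 0.56 ± 0.05 and the malonyl-CoA decarboxylase gene Mlycd by 0.49 ± 0.11 and 0.57 ± 0.10. Of 13 genes of esterification and lipolysis, 2 fell and none rose in eWAT, and 4 fell and 1 rose in iWAT. Against the 41.3% and 37.6% of all genes called, the share called was smaller in eWAT and near that of all genes in iWAT. Agpat3 fell by 0.38 ± 0.08 and 0.32 ± 0.10, Mogat1 by 0.72 ± 0.25 in eWAT, and Agpat2 by 0.69 ± 0.20 and the lipase gene Pnpla2 by 0.63 ± 0.14 in iWAT, where Acsl4 rose by 0.56 ± 0.05.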

How the data were processed

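RNA from eWAT, iWAT and muscle was measured by RNA-seq on an Illumina instrument. The deposited gene tables hold expected counts from RSEM, per the file headers, with the build mm9 and DESeq2 1.10.1 named in the submitters' processing notes; the sources used here name neither the aligner nor the annotation. Of the values, 67.9% (chow) and 68.1% (HFD) were whole to within 1e-09. The deposited quality tables give the percent of reads mapped and the percent G+C of aligned reads, per the file headers.

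Expected counts were rounded. Each tissue was fitted over its genotypes and diets in edgeR 4.0.16 (R 4.3.3; TMM scaling; filterByExpr with a minimum count of 10 and a total of 15; quasi-likelihood test; Benjamini-Hochberg adjustment), with joint fits for both depots and for all chow tissues. All 10 members passed the filter in every fit. The p-values measure the spread between mice, whose numbers in the titles differ within a group. CPM was taken over total expected counts without TMM. The transcript length is that of the longest coding transcript in GENCODE vM1 (NCBIM37). Values of 0 are given with a floor of 3 counts, which covers counting error only. Counting was not stated to use strand.

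On simulated counts with known changes, the diet fit of eWAT recovered 59% of genes changed by 1 on the log2 scale and 98% of those changed by 2. In iWAT these were 69% and 98%. Of the unchanged genes, 13 were called in eWAT and 12 in iWAT. The simulated spread followed the trend over all genes, and most members varied more than the median gene. These rates therefore need not hold for the members.

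Depots of 1 mouse were paired by the mouse number in the titles. Over 20 mice, the median correlation of a mouse's depots was 0.11, against -0.01 to other mice, and 12 of 20 were over 0.1. The other settings were DESeq2 1.42.0, other scalings, no filter, each library left out, run, adipocyte or lymph node markers as covariates, a correction for G+C content and length (known for 83.4% to 84.2% of genes), and the libraries with epithelial RNA left out, defined as a marker sum above 5 times the eWAT median.

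All 10 members could be named in each comparison, some by counts or ranges; of each other list, up to 4 genes with the smallest adjusted p for diet; and the 8 genes most like the members in each depot. The members and lists were chosen with earlier results of these data known. Rescaled and transcript tables were not used. One of the genes most like the members in iWAT is not reported here.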

Additional observations from a re-analysis of the deposited data

Results flagged for a closer look

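In 9 of 150 sets of 4 libraries (1 member in 1 group), Dixon's test set 1 library apart from the other 3; chance alone does so in about 5% of sets. Of the 9, 6 were in muscle. In muscle of C3Hn:C3Hmt, replicate 4 held 17.0 CPM of Acly against 9.77 to 10.2 CPM in the others, 48.9 CPM of Fasn against 19.1 to 19.5 CPM, and 3.18 CPM of Elovl6 against 0 to 0.382 CPM, so 3 enzymes of synthesis were high in 1 mouse. In the same group, replicate 3 held 190 CPM of Acacb against 148 to 155 CPM.

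In muscle of C57n:C3Hmt, replicate 4 held 22.7 CPM of Acly against 13.7 to 15.2 CPM, and in muscle of C3Hn:C57mt, replicate 4 held 41.7 CPM of Acss2 against 31.2 to 32.0 CPM. In fat, HFD C57n:C57mt replicate 3 held 112 CPM of Acacb in iWAT against 43.2 to 51.9 CPM, and chow C3Hn:C3Hmt replicate 1 held 324 CPM of Elovl6 in iWAT against 162 to 180 CPM. HFD C3Hn:C3Hmt replicate 3 held 247 CPM of Pnpla3 in eWAT against 403 to 417 CPM; this library was also the lowest of HFD eWAT for Fasn (451 CPM), Acaca (56.8 CPM), Elovl6 (3.25 CPM) and Mlxipl (10.6 CPM), while its adipocyte marker sum, 33451 CPM, was the highest of HFD eWAT. The causes were not tested.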

How the results depend on the processing

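No called difference of a member, in the comparisons over genotypes, changed sign under any alternative, all of which scaled the libraries. Some estimates that were not called did, such as Srebf1 for depot on chow (-0.18, and 0.02 with the animal block). Others were Fasn for depot on HFD (-0.09 and 0.09) and Elovl6 by nuclear genome in HFD eWAT (-0.49, and 0.03 without epithelial RNA). Another scaling (DESeq2 size factors or upper quartile) left all counts of members called within 1.5 times, and moved the median log2 change of all genes by under 0.1 for diet, nuclear genome and depot; upper quartile moved it from -0.51 to -0.66 for muscle against eWAT and from -0.32 to -0.47 against iWAT, where Mlxipl, not called, went from 0.04 to -0.11. Fewer libraries and fewer genes tested are part of some alternatives; the cause of the changes below was otherwise not tested.

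DESeq2 called 13 of 40 diet differences within eWAT genotypes (edgeR 6), 3 members by nuclear genome in HFD eWAT (1) and 5 in chow eWAT (3), 2 mtDNA differences (0), and 1 each for diet by nuclear genome in eWAT and in iWAT and for depot by diet (0 each). Without the 6 libraries with epithelial RNA these eWAT counts were 19, 3 and 5, the mtDNA count 2, and the depot counts 2 on chow (5) and 1 on HFD (0). Within genotypes, the G+C correction left 0 calls in eWAT and 11 in iWAT (18), and run as a covariate left 2 in eWAT. Diet in eWAT gave 4 calls in the C57n genotypes alone and 5 in the C3Hn alone. Adipocyte markers as a covariate left 3 calls by nuclear genome in chow iWAT (5). Lymph node markers as a covariate gave 1 for diet by nuclear genome in iWAT and 1 for depot on chow, where no filter gave 3. Counts of members called under these settings, here and above, stand without the share of all genes called in the same setting. A rise among the members is therefore not set against a rise over all genes here.

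The pairing of depots by mouse, as a replicate block, gave 1 call for depot on chow, 1 on HFD and 0 for depot by diet.

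Leaving out 1 library gave 7 to 9 members called for diet in eWAT and 9 in iWAT, 3 to 8 and 14 to 27 within genotypes, 0 to 1 for diet by nuclear genome in each depot, 3 to 4 by nuclear genome in chow eWAT, 1 to 3 in HFD eWAT, 4 to 7 in chow iWAT, 2 to 3 in HFD iWAT and 3 to 6 in muscle, 2 to 7 for depot on chow, 0 for depot on HFD, for depot by diet and for mtDNA, and 10 and 9 for muscle against eWAT and iWAT.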
